A study of Homo sapiens with 4 samples.

Results

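Messenger RNA of 6 genes of fibroblast growth factor (FGF) signalling, the ligands FGF2, FGF1 and FGF5 and the receptors FGFR1, FGFR2 and FGFR3, was followed in single U-2 OS cells after ionizing radiation. These 6 of the 36601 genes listed were picked by symbol, in all 4 matrices, and were selected on measured values: their level, their difference between irradiated and untreated cells and their spread between cells were known beforehand. Values of that contrast and of that spread are therefore descriptions and carry no p-value. U-2 OS is a line derived from a human osteosarcoma, and its p53 is wild type. Cells were exposed to 4 Gy of ionizing radiation (IR) and sorted 48 h later, or were left untreated (UT). The treatment protocol in the labels gives 24 h instead. Each of 2 experiments gave 1 library per group, and no gene was altered in either group.

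FGFs bind receptor tyrosine kinases on the cell surface together with heparan sulfate chains carried by syndecans, glypicans and other proteoglycans. Bound receptors pair and phosphorylate the adaptor FRS2, which recruits GRB2 and SOS and so switches on RAS, RAF, MEK and ERK. Sprouty proteins and dual-specificity phosphatases are induced by ERK and dampen the signal. FGF2 and FGF1 have no classical signal peptide and leave cells without passing through the Golgi apparatus, whereas FGF5 is secreted in the usual way. FGF2 is a mitogen for cells of the bone lineage.

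SORT-seq sorts 1 cell into each well of a plate and primes its polyadenylated RNA with an oligonucleotide that carries a barcode for the cell and a random tag for the molecule, the unique molecular identifier (UMI). The libraries held 358 and 367 UT cells and 247 and 248 IR cells, with total gene counts between 5736339 and 6810080. IR cells were deeper, with medians of 20181 and 22036 counts per cell against 15662 and 17627 for UT cells, so shares of cells with a UMI are given after each cell was thinned to 8000 UMIs. That step kept 333 and 356 UT cells and 231 and 232 IR cells. Between 173 and 350 barcodes were shared by any 2 libraries, because plates use 1 set of well barcodes. VIM, SPARC and COL1A1, markers of mesenchymal cells, lay between 1114 and 2377 CPM (the share of a library's gene counts, scaled to a total of 1000000) in every library. COL1A2, also listed as a marker of these cells, lay between 0.511 and 2.64 CPM. Of the osteoblast markers, SP7 was at 0 in all 4 libraries and IBSP was at 0 in 3, while RUNX2 lay between 21.99 and 30.2 CPM. ALPL lay between 1.76 and 9.4 CPM and BGLAP between 2.2 and 4.26 CPM. Of the epithelial markers, EPCAM lay between 13.6 and 17.2 CPM and CDH1 between 0.852 and 1.62 CPM, and KRT19 was at 0 in all 4 libraries. Of the haematopoietic markers, CD3E, a T cell gene, was at 0 in both libraries of experiment 1 and at 4.11 (UT) and 3.56 (IR) CPM in experiment 2. PTPRC lay between 0.511 and 3.56 CPM and CD68 between 2.56 and 7.44 CPM. Of the endothelial markers, PECAM1 lay between 0.17 and 2.4 CPM, VWF between 0.587 and 1.92 CPM and CDH5 between 0 and 0.294 CPM.

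The bases just upstream of the 3 ligand genes are shown because these genes were higher together after IR. They were taken from RefSeq promoter windows on GRCh38.p14, which run from 250 bases before a start site to 50 bases after it, and were trimmed so that nothing downstream of the first annotated start is printed. Capitals mark GC boxes (GGGCGG on either strand), binding sites of SP1-type factors. FGF2 is on the plus strand of chromosome 4, and the FGF2 stretch is chr4:122826581-122826681. FGF5 is on the same strand of chromosome 4, and the FGF5 stretch is chr4:80266338-80266587. FGF1 is on the minus strand of chromosome 5, and the stretch before its outermost start is chr5:142698071-142698320.
FGF2: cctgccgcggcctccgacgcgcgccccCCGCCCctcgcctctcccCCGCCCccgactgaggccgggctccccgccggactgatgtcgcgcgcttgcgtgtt
FGF5: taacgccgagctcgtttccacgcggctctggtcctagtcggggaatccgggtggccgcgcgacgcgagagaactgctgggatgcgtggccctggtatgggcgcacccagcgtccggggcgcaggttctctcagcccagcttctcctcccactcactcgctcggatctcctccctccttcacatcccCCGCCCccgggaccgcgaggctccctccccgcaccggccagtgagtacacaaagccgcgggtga
FGF1: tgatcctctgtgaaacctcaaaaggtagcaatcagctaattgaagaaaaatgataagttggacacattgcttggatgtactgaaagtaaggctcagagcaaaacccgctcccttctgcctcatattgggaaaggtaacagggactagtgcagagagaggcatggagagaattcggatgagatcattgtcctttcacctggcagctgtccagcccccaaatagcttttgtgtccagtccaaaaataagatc

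The FGF2 stretch was 80.2% G and C and held GC boxes, the FGF5 stretch was 68.8% G and C, and the FGF1 stretch was 44.8% G and C and held none. Over all 35116 windows of 300 bases, 45.0% held a GC box, a share for whole windows and not for the shorter stretches shown. The whole window of FGF2 held 3 GC boxes. Window 1 of FGF5 held 1, and windows 3 and 4 of the 4 FGF1 windows held 1 each, while the other windows of these ligands held none. The AP-1 site TGAGTCA, searched on both strands, was in 4.95% of all windows and in 1 of the 4 windows of FGF1, and in no window of FGF2 or FGF5. The core of the interferon-stimulated response element, GAAA followed after any 2 bases by GAAA, was in 3.57% of all windows and in none of the 7 windows of the 3 ligands. The p53 half-site was in 6.63% of all windows and likewise in none of these 7. The absence of a match says only that these letters are not in these windows.

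All 3 ligands were higher in both IR libraries than in either UT library, by 2.4 to 4.4 times within an experiment, whereas FGFR1 and FGFR2 overlapped between the groups. The share of all genes whose IR and UT libraries separate in this way was not counted. Nothing is read from the separation, because these genes were chosen on this contrast. FGF2 measured 31.5 and 36.6 CPM in UT and 77.0 and 93.4 CPM in IR. The mean was 34.1 ± 3.57 CPM in UT and 85.2 ± 11.6 CPM in IR (SD, n = 2 libraries per group), and IR was 2.44 times UT in experiment 1 and 2.55 times in experiment 2. FGF1, which binds every FGF receptor, measured 18.6 and 18.2 CPM in UT and 43.9 and 53.7 CPM in IR. No UT library reached an IR library for either gene, and the IR to UT ratio of FGF1 was 2.37 and 2.95. FGF5, known as a regulator of hair growth, measured 8.18 and 8.37 CPM in UT and 33.5 and 37.0 CPM in IR. It had the highest ratio of the 6 genes in both experiments, 4.09 and 4.42.

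**Figure D1:**
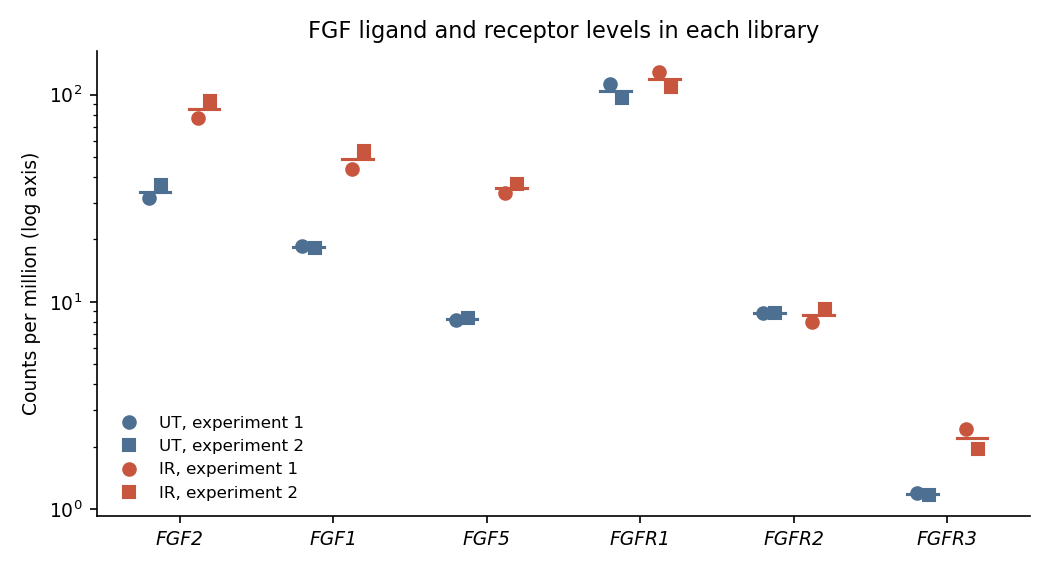
Level of each gene in each library, in CPM on a log axis. Circles are experiment 1, squares experiment 2, and short lines are group means of 2 libraries. FGF2, FGF1 and FGF5 lie higher in both IR libraries, and FGFR1 and FGFR2 overlap between UT and IR.

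FGFR1 and FGFR2 differed little. FGFR1, the receptor of mesenchymal cells, measured 112.3 and 96.2 CPM in UT and 128.7 and 108.7 CPM in IR. IR was 1.15 and 1.13 times UT within the experiments, but UT of experiment 1 lay above IR of experiment 2. FGFR2 measured 8.86 and 8.81 CPM in UT and 8.02 and 9.21 CPM in IR, so its IR libraries lay on either side of both UT libraries. FGFR3 was close to the limit of these libraries, with 7 and 8 counts in UT and 14 and 12 counts in IR (1.19, 1.18, 2.44 and 1.94 CPM). Its groups did not overlap, but the share of all genes that separate in this way was not counted, and nothing is read from it. In these libraries 3 counts correspond to 0.441 to 0.523 CPM, which marks the low end of the scale and is no error interval.

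In the fit across all 14647 genes tested, the log2 fold change of IR against UT was 2.01 for FGF5, 1.33 for FGF1, 1.24 for FGF2, 0.80 for FGFR3, 0.11 for FGFR1 and -0.11 for FGFR2. All 6 genes passed the filter on low counts. Genes called higher in this contrast (edgeR adjusted p below 0.05) made up 1.63% of those tested and genes called lower 0.847%. The 3 ligands were among the genes called higher and no receptor was called, with or without the experiment number as a block, and nothing is read from that count because this contrast was used to choose the genes. FGF2 lies on chr4:122826682-122898236, FGF5 on chr4:80266639-80336680, FGFR3 on chr4:1793293-1808872, FGF1 on chr5:142592178-142698070, FGFR2 on chr10:121478332-121598458 and FGFR1 on chr8:38400215-38468834 (GENCODE release of GRCh38).

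NUDT6 lies antisense to FGF2 (chr4:122888697-122922968), and 804 of the 6801 exonic bases of FGF2 are also exonic in NUDT6. How strand was handled in counting is not given in the sources used here, so reads from these shared bases may not be told apart. NUDT6 measured 5.97 and 10.3 CPM in UT and 8.02 and 8.41 CPM in IR. Its UT libraries lay on either side of both IR libraries, and FGF2 and NUDT6 UMIs were barely related across cells of 1 library (Pearson r between -0.02 and 0.10, n = 231 to 356 cells of the same library and depth).

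The ligands differed in how their extra UMIs were spread over cells. After thinning, 16.8% and 22.5% of UT cells held an FGF2 UMI, against 27.3% and 26.7% of IR cells. The exact 95% intervals, which cover counting error only, were 12.96 to 21.3% and 18.2 to 27.2% in UT and 21.6 to 33.5% and 21.2 to 32.9% in IR. In cells with an FGF2 UMI, however, the mean was 1.21 and 1.33 UMIs in UT against 2.16 and 2.68 in IR. Cells with 5 or more FGF2 UMIs numbered 0 and 2 in UT but 7 and 10 in IR, and the highest cell held 3 and 6 UMIs in UT and 14 in each IR library. The 10% of cells richest in FGF2 held 66.2% and 58.5% of its UMIs in UT and 70.6% and 75.3% in IR. More of the IR excess thus lay in a few cells with many FGF2 UMIs.

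FGF1 showed the other pattern. Thinned cells with an FGF1 UMI made up 12.3% and 11.8% of UT against 22.5% and 26.3% of IR, with 1.15 and 1.14 UMIs per positive cell in UT and 1.23 and 1.34 in IR. No thinned cell of any library held 5 FGF1 UMIs. The richest 10% of cells held 83.0% and 87.5% of FGF1 UMIs in UT and 54.7% and 53.7% in IR. That share is high by construction where few cells hold a UMI, so it does not compare genes or groups found in unlike shares of cells. FGF5 was found in 5.11% and 6.74% of UT cells and 14.7% and 17.2% of IR cells, with 1 cell per IR library at 5 or more UMIs. FGFR1 was found in 52.9% and 50.8% of UT cells and 60.6% and 55.2% of IR cells, with 1.57 to 1.70 UMIs per positive cell in all 4 libraries. FGFR2 was found in 5.62% to 7.81% and FGFR3 in 0.843% to 1.73% of thinned cells, with no order between the groups for FGFR2.

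**Figure D2:**
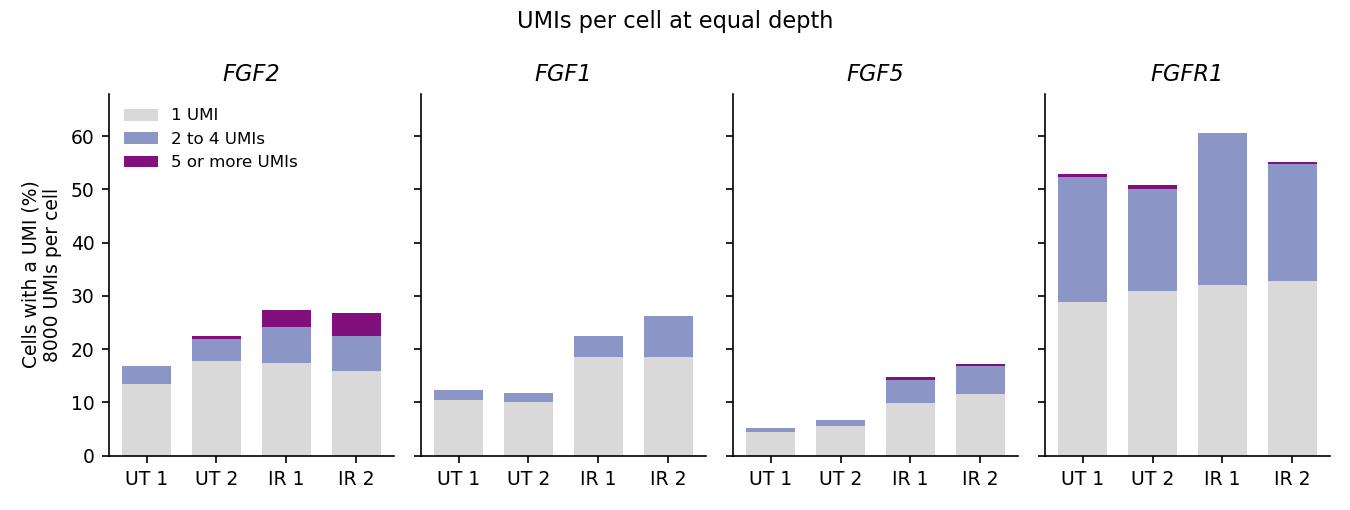
Share of cells with a UMI of 4 of the genes, after thinning each cell to 8000 UMIs, split by the number of UMIs. Bars are the 2 UT and 2 IR libraries. FGF2 alone of these genes gained a visible class of cells with 5 or more UMIs in IR (7 and 10 cells), whereas FGF1 gained cells with 1 to 4.

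The ratio of variance to mean of the thinned UMIs, which is 1 for counting noise alone, was 1.18 and 1.54 for FGF2 in UT and 4.08 and 5.28 in IR. For FGF1 it was 1.12 in both UT libraries and 1.20 and 1.24 in IR. FGF5 lay in between, at 1.34 and 1.21 in UT and 1.85 and 2.06 in IR. FGFR1 had 1.30 and 1.25 in UT and 1.11 and 1.43 in IR, with overlap between the groups.

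A further measure, meant to allow for the level of a gene, was taken over genes found in at least 5% of thinned cells. It is the residual of the log2 SD from a line fitted against the log2 mean of log-normalized values. FGF2 had a residual of 0.077 and 0.157 in UT and 0.425 and 0.528 in IR. Among 11162 to 11410 genes per library it stood at the 64.5th and 93.6th percentile in UT and the 99.7th and 99.9th in IR. Residuals above 0.5 were found in 0.0806% and 0.0178% of genes in UT and 0.195% and 0.14% in IR, and only FGF2 of the 6 genes exceeded that value, in IR of experiment 2. FGF5 went from -0.122 and -0.080 in UT to 0.189 and 0.207 in IR, and FGF1 from 0.003 and -0.005 to 0.090 and 0.138. FGFR1 lay at 0.188 and 0.158 in UT and 0.070 and 0.134 in IR, and FGFR3 was found in too few cells for this measure. FGFR2, found in few cells, had -0.135 and -0.154 in UT and -0.134 and -0.199 in IR. A straight line may leave part of the level of a gene in the residual. How much of the FGF5 and FGF1 differences in residual goes with their higher level was not tested.

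Most thinned cells with a UMI of any of these ligands held UMIs of only 1 of them. Of the thinned cells, 70.0% and 63.8% in UT and 49.8% and 50% in IR held no UMI of FGF2, FGF1 or FGF5. Cells with UMIs of at least 2 of these ligands are counted by adding those with 2 (4.20% and 4.21% in UT, 12.6% and 14.2% in IR) to those with all 3 (at most 3.02%). FGF2 and FGF5 had a Pearson r of 0.02 and 0.08 across UT cells and 0.20 and 0.28 across IR cells, the highest among pairs of ligands in IR. FGF2 and FGF1 had r of -0.02 and 0.09 in IR. FGF5 was found in 20.6% and 27.4% of IR cells with an FGF2 UMI and in 12.5% and 13.5% of those without. FGF1 was found in 22.2% and 33.9% of IR cells with an FGF2 UMI and in 22.6% and 23.5% of those without. For FGF5 in IR cells with and without an FGF1 UMI, the shares were 15.4% and 26.2% against 14.5% and 14%. These are descriptions across cells of the same library and depth.

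UMIs of FGF2 and of its receptor FGFR1 were found together in 6.61% and 13.2% of UT cells and 16% and 17.2% of IR cells. FGFR1 was found in 58.7% and 64.5% of IR cells with an FGF2 UMI and in 61.3% and 51.8% of IR cells without one. The experiments differed in direction, and so did UT, with 39.3% and 58.8% in cells with an FGF2 UMI against 55.6% and 48.6% in cells without.

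Several genes most like FGF2 across IR cells are known interferon-stimulated genes. Likeness was the lower of the Pearson r in the 2 IR libraries, among 6184 genes found in at least 20% of thinned cells of each. The 8 highest were PMAIP1 (r = 0.34 and 0.36), which encodes the pro-apoptotic protein NOXA, the antiviral zinc-finger protein ZC3HAV1 (0.32 and 0.31), B2M (0.29 and 0.28), the light chain of MHC class I, the matricellular protein CCN3 (0.28 and 0.24), the anti-proliferative BTG1 (0.28 and 0.23), the interferon-induced SAMD9 (0.22 and 0.23), the galactosyltransferase B4GALT5 (0.24 and 0.22) and the hypoxia-inducible factor EPAS1 (0.20 and 0.23). The 99th percentile over all genes ranked was 0.17 and 0.18. In UT cells these 8 had r between -0.10 and 0.10. When genes found in at least 10% of cells were admitted, a limit chosen after the data were seen, the first 6 of 8813 genes were OASL (0.46 and 0.59), IFIT3 (0.43 and 0.55), ISG15 (0.43 and 0.42), IFIT1 (0.40 and 0.49), DDX60 (0.42 and 0.35) and IFI44 (0.39 and 0.34). All 6 are known interferon-stimulated genes. In UT cells they had r between 0.01 and 0.08 in experiment 1 and between 0.12 and 0.26 in experiment 2. The highest there was IFIT3 (0.26), where the 99th percentile over the 6184 genes was 0.13. Both lists were admitted and ranked on IR cells alone, so a lower r in UT is partly fixed by that choice.

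The values for FGFR1 were lower. Its 8 most alike genes, ranked in the same way, were LY6E, RSPH3, SSH3, DHX32, GLI3, ST3GAL1, MAP3K7CL and PDLIM4, with r between 0.13 and 0.22 in IR. The highest of them, LY6E, also known as interferon-stimulated, had 0.15 and 0.22, against a 99th percentile of 0.15 and 0.16, so these values lay close to the upper end of all genes.

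The UMIs of 37 interferon-stimulated genes were therefore summed in each thinned cell. This list was drawn up after the likeness to FGF2 had been seen and is no independent evidence of it. The sum had a median of 6 and 5 in UT and 6 and 8 in IR, and its highest value was 166 and 145 in IR against 67 and 63 in UT. More than 12 UMIs, the 95th percentile of UT cells, were held by 15 and 11 UT cells and by 31 and 39 IR cells. Across IR cells the log2 sum and log2 FGF2 had r of 0.40 and 0.50, against -0.03 and 0.06 across UT cells. FGF1 had -0.03 and 0.13, FGF5 0.14 and 0.13 and FGFR1 0.02 and 0.13 across IR cells.

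Cells above that cut made up 13.4% and 16.8% of thinned IR cells and held 44.1% and 57.8% of the FGF2 UMIs. FGF2 measured 257.3 and 302.5 CPM in these cells and 51.1 and 50.2 CPM in the other IR cells. Of the IR cells with 5 or more FGF2 UMIs, 4 of 7 and 8 of 10 were above the cut, and so were both such cells of UT. In UT the cells above the cut had 68.9 and 175.3 CPM of FGF2 against 28.6 and 32.7 CPM in the rest, from all counts of these cells. After thinning, they made up 4.5% and 3.09% of UT cells and held 4.41% and 14.2% of the FGF2 UMIs. An FGF2 UMI was found in 13.3% and 45.5% of them, against 17% and 21.7% of the other UT cells. At equal depth UT of experiment 1 thus showed no excess above the cut. The median depth of IR cells before thinning was 20151 and 24312 UMIs above the cut and 21912 and 22168 UMIs below it, with no common direction.

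FGF1 did not follow that division in both experiments. It measured 38.3 and 74.8 CPM above the cut in IR and 45.6 and 49.9 CPM in the other cells, lower in one experiment and higher in the other. FGFR1 was slightly higher above the cut in both IR libraries, with 139.1 and 124.3 CPM against 128.7 and 106 CPM in the others. FGF5 was higher above the cut in both IR libraries, with 52.5 and 57.0 against 30.8 and 32.4 CPM. These cells also held 19.6% and 29.5% of FGF5 UMIs, from 10 and 18 UMIs.

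**Figure D3:**
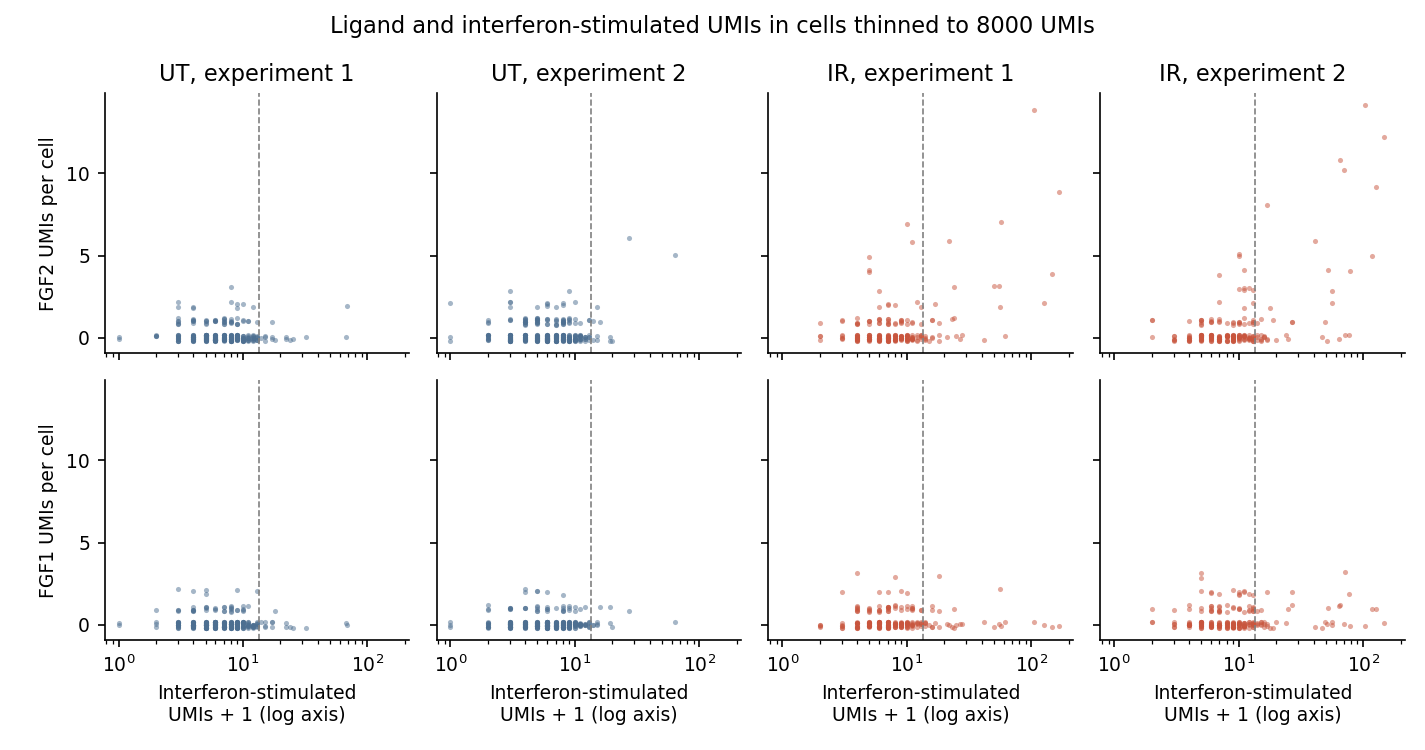
UMIs of FGF2 (top) and FGF1 (bottom) per cell, jittered, against the summed UMIs of 37 interferon-stimulated genes plus 1 on a log axis, for each library after thinning to 8000 UMIs. The dashed line marks a sum of 12. In IR the cells with most FGF2 UMIs, up to 14, lie mainly to the right of the line, and FGF1 stays at 3 UMIs or fewer on both sides.

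Among cells at or below the cut, the IR to UT ratio of FGF2 was 1.79 and 1.53, down from 2.44 and 2.55 in all cells. That of FGF1 was 2.40 and 2.72 and that of FGF5 was 3.63 and 4.24, close to their ratios in all cells. FGFR1 had 1.15 and 1.10. This split was added after the data were seen, and the part that cells above the cut play in the FGF2 difference was not tested. The gene list followed the likeness to FGF2, not to FGF1 or FGF5. A lower FGF2 ratio is therefore partly fixed by that choice, and the contrast with FGF1 and FGF5 is no test.

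Whether the genes differ between cycling and low-cycle cells was tested apart from IR. Cells were classed by the summed UMIs of 96 genes of S, G2 and M phase: a sum of at most 79.8 was called low-cycle and one above 123.5 cycling, and these are ranges of a score, not cell types. Low-cycle cells made up 34.8% and 32.0% of thinned UT cells and 62.8% and 61.2% of IR cells, with 28 and 34 cycling cells left in IR. Between 42 and 108 cells per library lay within 10% of a cut. Counts were summed per class and library, giving 8 sums, and fitted with library as a block. Of 12544 genes tested, 16.1% were called higher in cycling cells and 14.5% lower (edgeR adjusted p below 0.05).

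None of the 5 FGF genes tested passed, and FGFR3 had too few counts to be tested. FGF5 had the lowest values in cycling cells relative to low-cycle cells, with a log2 difference of -0.44 ± 0.21 (SE) and edgeR adjusted p = 0.121. It measured 12.7 and 9.94 CPM in low-cycle and 6.14 and 5.28 CPM in cycling UT cells. In IR it measured 42.1 and 39.1 against 22.1 and 43.6 CPM, so IR of experiment 2 went the other way. Without that library the difference was -0.92 and passed (edgeR adjusted p = 0.00925). FGF2 had -0.29 ± 0.41 (adjusted p = 0.666 in edgeR), and its sign turned to 0.18 without IR of experiment 2. FGF1 had -0.30 ± 0.18, FGFR1 -0.11 ± 0.10 and FGFR2 0.58 ± 0.29 (edgeR adjusted p = 0.211, 0.434 and 0.135).

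The class difference was not shown to vary with IR for any of the 5 genes (edgeR adjusted p of the interaction between 0.658 and 0.884). Of all genes, 0.606% had a class difference that was higher in IR than in UT and 0.0957% one that was lower. Since IR libraries held more low-cycle cells, the IR to UT ratio was also taken within each class. FGF2 had 3.72 and 3.14 in low-cycle cells and 2.54 and 1.32 in cycling cells. FGF1 had 1.86 and 3.95 in low-cycle and 1.70 and 2.03 in cycling cells. FGF5 had 3.31 and 3.94 in low-cycle and 3.59 and 8.25 in cycling cells. All 12 ratios were above 1, and those of FGFR1 lay between 1.03 and 1.33.

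**Figure D4:**
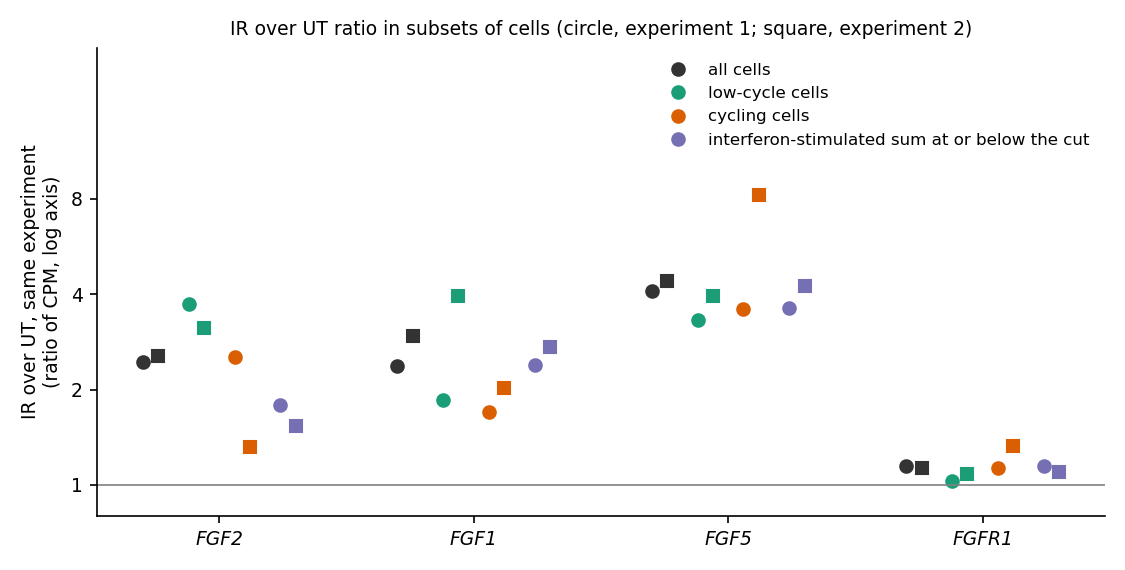
Ratio of IR to UT CPM within an experiment on a log axis, for all cells and for 3 subsets of thinned cells. Circles are experiment 1 and squares experiment 2. The FGF2 ratio is 1.79 and 1.53 in cells without a high interferon-stimulated sum, and FGF1 and FGF5 stay at 2.40 or above there. The genes of that sum were listed after the likeness to FGF2 was seen, so the lower FGF2 ratio is partly fixed by that choice. FGFR1 lies between 1.03 and 1.33 in all subsets.

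The other genes of the pathway did not move in one direction. Of 94 listed genes outside the 6, 72 passed the filter on low counts and 3 were called in IR against UT (edgeR, adjusted over all genes), 2 higher and 1 lower, where 1.63% and 0.847% of all genes were called. At an unadjusted p below 0.05 there were 17 of the 72, against 18.4% of all genes. The median log2 fold change of the 72 was -0.01, equal within 0.01 to that of all genes tested (0.00). With the experiment number as a block, 14 rose and 8 fell, where 14.3% and 12.9% of all genes did. Without the filter on low counts, 12 pathway genes were called and 5.81% of all genes, and DESeq2 called 5 and 3.81%. Below, the unblocked fit is the one with the filter and without the block. Of the genes named, FGF9, SDC2, CEP57, EXT1, GAB1, DUSP5, FOSL1 and CCND1 were not called in that fit but passed both with the block and without the filter (edgeR adjusted p without the filter from 0.00207 to 0.0242).

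All 3 calls of the unblocked fit were co-receptors, among 13 tested, of which 6 had an unadjusted p below 0.05. Over all genes, 1.63% were called higher, 0.847% lower and 18.4% had an unadjusted p below 0.05. These shares are the base for the counts of each list here and below. SDC4, a syndecan that carries heparan sulfate and presents FGFs, measured 82.7 and 94.9 CPM in UT and 176.5 and 227.6 CPM in IR (edgeR log2 fold change 1.11 with an SE of 0.18, adjusted p = 0.0357). The syndecan SDC1 rose from 73.8 and 70.0 to 145.6 and 125.9 CPM (0.84 ± 0.16, edgeR adjusted p = 0.0482). The adhesion molecule NCAM1, which can bind FGF receptors, fell from 62.2 and 75.3 to 26.9 and 36.1 CPM (-1.21 ± 0.20, edgeR adjusted p = 0.0389). SDC2 measured 63.6 and 57.1 CPM in UT and 40.1 and 32.8 CPM in IR, with an edgeR adjusted p = 0.0728 in the unblocked fit and 3.59e-07 with the block. SDC1 lost its call with any 1 library left out, SDC4 without IR of experiment 2 or UT of experiment 1, and NCAM1 without IR of experiment 1 or UT of experiment 2, so 1 pathway gene was called in each of those fits.

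Of the 14 genes of FGF storage, export and heparan sulfate tested, none was called in the unblocked fit, 5 had an unadjusted p below 0.05 and DESeq2 called EXT1 alone. EXT1, a polymerase of heparan sulfate, measured 77.0 and 73.0 CPM in UT and 131.2 and 135.4 CPM in IR (edgeR adjusted p = 0.0514, and 1.12e-08 with the block). DESeq2 gave an adjusted p = 0.0257 for it. CEP57, a centrosomal protein that binds FGF2, measured 62.7 and 68.3 CPM in UT and 44.8 and 42.0 CPM in IR (edgeR adjusted p = 0.0807, and 8.8e-06 with the block). The sulfotransferase HS6ST1 and the sulfatase SULF2 had log2 fold changes of -0.56 and -1.50 (edgeR adjusted p = 0.247 for both) and passed with the block (edgeR adjusted p = 0.0207 and 0.0234), SULF2 from 20 and 14 UT counts and 3 and 9 IR counts.

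Of the other 19 FGF ligands, 5 passed the filter, none was called in the unblocked fit or by DESeq2, and 1 had an unadjusted p below 0.05. FGF9 was low throughout, at 5 and 4 counts in IR against 16 and 19 in UT (log2 fold change -1.92, edgeR adjusted p = 0.0968 in the unblocked fit, 0.00343 with the block and 0.0242 without the filter). FGF18 had 0.91, FGF11 -0.33 and FGF13 -0.36, with edgeR adjusted p between 0.435 and 0.581.

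Among 12 adaptors and 10 genes of the RAS and ERK cascade, all tested, none was called in the unblocked fit or by DESeq2, and 2 adaptors and 0 cascade genes had an unadjusted p below 0.05. The docking protein GAB1 measured 14.1 and 12.6 CPM in UT and 7.15 and 7.11 CPM in IR, with an edgeR adjusted p = 0.083 in the unblocked fit and 0.000512 with the block. FRS2 had a log2 fold change of 0.45, CRKL -0.27 and SHC1 0.21 (edgeR adjusted p from 0.227 to 0.564), and of these FRS2 passed with the block (edgeR adjusted p = 0.0132). The cascade genes lowest in p were MAP2K1 (0.28), HRAS (0.29), BRAF (-0.20) and ARAF (-0.18), none of them called with the block either.

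Of 18 ERK targets and feedback genes tested, none was called in the unblocked fit, 3 had an unadjusted p below 0.05 and DESeq2 called CCND1 alone. The median log2 fold change was 0.15. CCND1, which encodes cyclin D1, measured 234.1 and 193.0 CPM in UT and 368.7 and 359.6 CPM in IR. FOSL1, an AP-1 subunit, measured 89.0 and 76.7 CPM in UT and 156.8 and 130.8 CPM in IR. DUSP5, a nuclear ERK phosphatase, measured 19.8 and 14.98 CPM in UT and 37.0 and 32.8 CPM in IR. All 3 passed with the block, where 14.3% of all genes were called higher (edgeR adjusted p in the unblocked fit 0.0834, 0.0837 and 0.0726). IER3 had -0.29, and passed with the block (edgeR adjusted p = 0.364 and 0.0144). The sprouty genes SPRY2 and SPRY4 had log2 fold changes of 0.20 and 0.06 (edgeR adjusted p = 0.785 and 0.968). Other feedback genes differed more. SPRED3 had 0.54 (edgeR adjusted p = 0.365, and 0.0067 with the block). DUSP6 had -1.01, from 10 and 23 UT counts and 6 and 10 IR counts (edgeR adjusted p = 0.38, and 0.112 with the block). SPRED1 and SPRED2 had -0.06 and 0.14.

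**Figure D5:**
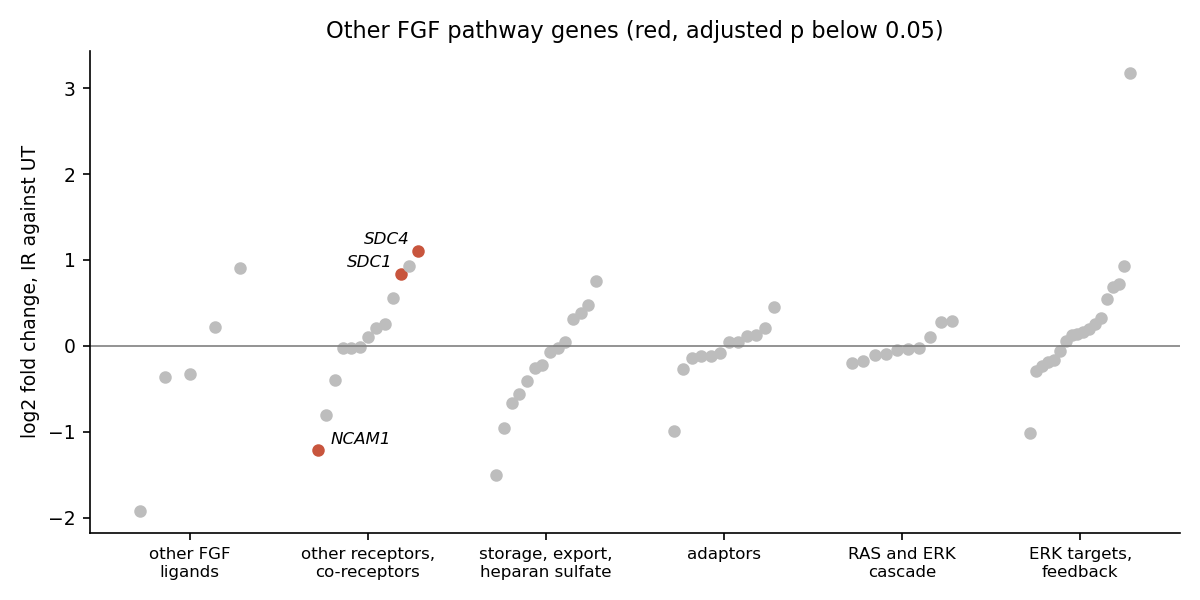
Log2 fold change of IR against UT for the 72 other pathway genes tested, by list, each dot a gene sorted within its list. Red dots are the 3 genes called in the unblocked fit, SDC4, SDC1 and NCAM1, all among the co-receptors. The highest dot, at 3.18, is DUSP4, whose counts came almost wholly from experiment 2.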

How the data were processed

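The authors mapped read 2 of the SORT-seq libraries to GRCh38 with STARsolo, leaving out intronic reads and reads of several genes. The submitters' processing notes also name Seurat 5. For strand handling and the barcode filter, nothing is given in the sources used here. Deposited values are expected counts: UMI numbers corrected for collisions among 4096 UMI sequences of 6 bases and written to 3 significant digits. The design had assumed plain counts.

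All 1220 deposited barcodes and 36601 genes were used, without doublet removal. The 92 spike-ins were left out of library sizes and tests. Expected counts were summed per library (5736339 to 6810080), rounded and fitted in R 4.3.3. The test was the two-sided quasi-likelihood F test of edgeR 4.0.16 with robust dispersions, after filterByExpr and TMM scaling, and p-values were adjusted by Benjamini-Hochberg over all genes (threshold 0.05). The p-values measure the spread between 2 libraries per group, from sets of samples the study describes as independent. Cell-level values used UMIs thinned to 8000 per cell, seeded. Fits and cell measures were run on simulated data to check the code. The libraries simulated for IR against UT varied less than the real ones and held no experiment effect. That check therefore does not show how well the fits perform on these libraries.

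The experiment number in the titles pairs the libraries. Deviations from group means correlated at 0.635 between libraries of 1 experiment over 14647 genes, and the block took edgeR's biological coefficient of variation from 0.177 to 0.0727.

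The members, lists, rules and tests were chosen with earlier results of these data known. Named genes were the 6 members, NUDT6, up to 4 genes of each pathway list by p, and the 8 genes most like FGF2 and FGFR1. DUSP4, DUSP6, PHLDA1, SPRY2, SPRY4, SPRED1, SPRED2, SPRED3 and the interferon-stimulated genes were named after their values were seen. Of 97 cell cycle genes, 96 were matched. Alternatives were the block, RLE size factors, DESeq2 1.42.0, no filter, equal numbers of cells (247), each library left out, a median class cut and other thinning depths.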

Additional observations from a re-analysis of the deposited data

Results flagged for a closer look

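PHLDA1, an ERK target of the pathway lists, had a difference between cycling and low-cycle cells that itself differed between IR and UT. In UT it measured 162.5 and 175.7 CPM in low-cycle cells and 65.3 and 66.9 CPM in cycling cells. In IR it measured 115.4 and 134.1 CPM in low-cycle cells and 102 and 119.9 CPM in cycling cells. The log2 class difference was -1.32 and -1.39 in UT against -0.18 and -0.16 in IR, and the interaction term was 1.17 (edgeR adjusted p = 0.00014 over 12544 genes, 4 libraries). It was the only one of the FGF genes and other pathway genes tested whose interaction passed.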

How the results depend on the processing

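With the experiment number as a replicate block, 3977 genes were called in IR against UT in place of 363, and 22 pathway genes in place of 3. DESeq2 gave 558 and 5, and no filter 1513 and 12. Leaving out 1 library gave 112 to 234 genes and 1 pathway gene in each fit. For cycling against low-cycle cells DESeq2 called 1830 genes in place of 3836, and leaving out 1 library gave 2735 to 3296. The causes were not tested.

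The log2 fold changes of the 6 genes moved by less than the SD of their difference under every planned setting, with ranges on leaving out 1 library of 1.10 to 1.36 for FGF2, 1.18 to 1.45 for FGF1, 1.94 to 2.07 for FGF5, 0.61 to 0.96 for FGFR3, -0.21 to -0.03 for FGFR2 and -0.03 to 0.23 for FGFR1. Without cells of a high interferon-stimulated sum, FGF2 had 0.73 in place of 1.24. The class difference ranged from -0.51 to 0.18 for FGF2, turning sign without IR of experiment 2 (0.18), and from -0.92 to -0.29 for FGF5. Among named pathway genes ARAF ranged from -0.38 to 0.04 on leaving out 1 library and turned sign, to 0.04, without UT of experiment 1.

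Not thinned, the share of cells with a UMI differed between IR and UT by 13.4 (FGF2), 25.7 (FGF1), 22.7 (FGF5), 4.01 (FGFR2) and 1.97 (FGFR3) percentage points, against 7.35, 12.3, 10.1, -0.233 and 0.706 at 8000 UMIs. IR cells were deeper. At 4000 UMIs it was 9.20 (FGF1), 6.08 (FGF5), -2.31 (FGFR2) and 0.195 (FGFR3). The difference in spread residual was 0.36 for FGF2, 0.12 for FGF1 and 0.30 for FGF5 at 8000 UMIs. It was 0.20 for FGF2 and 0.20 for FGF1 at 4000 UMIs, where FGF5 gave none in UT, and 0.48 (FGF2), 0.03 (FGF1) and 0.35 (FGF5) unthinned. On the scale of variance over mean it was 3.32 (FGF2), 0.10 (FGF1), 0.67 (FGF5), -0.01 (FGFR1) and -0.06 (FGFR2). FGFR3 and the cycling class of IR, with 28 and 34 cells, are limited by depth.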

Other observations

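DUSP4, an ERK phosphatase among the feedback genes, was found almost wholly in experiment 2. It had 0 counts in 358 UT cells and 1 count in 247 IR cells of experiment 1, against 22 counts in 367 UT cells and 200 counts in 248 IR cells of experiment 2. In IR of experiment 2 the counts came from 120 cells (48.4%), with at most 7.01 in a cell. Its log2 fold change of 3.18 was not called in the fit with the filter on low counts and without the experiment block (edgeR adjusted p = 0.633). It was called with the block (edgeR adjusted p = 3.02e-13) and also without the filter. A fold within experiment 1 could not be given at these counts.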
